A study of Homo sapiens with 4 samples.

Results

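The 35 genes described here encode the enzymes and carriers that take glucose into the cell, split it to pyruvate and export lactate, together with the pyruvate dehydrogenase step and 3 enzymes of the pentose phosphate pathway. They were chosen by name, with earlier results of these data known. Each of the 35 names matched 1 row of the 20372 genes in the count table. The RNA came from TPC1, an established cell line from a human papillary thyroid carcinoma with a fusion of CCDC6 to RET. Cells grown in medium with serum received BLU6864, a selective inhibitor of the RET kinase, for 24 h (RETi, 2 libraries) or BLU6864 with BGJ398, an inhibitor of FGF receptors, for the same time (RETi + FGFRi, 2 libraries). Both groups received BLU6864, so the comparison asks what differs when FGF receptors are inhibited on top of RET, and untreated cells and cells given BGJ398 alone were not analysed here. All 4 libraries are of 1 cell line in culture. The labels give the dose of the inhibitors in micromolar and the methods of the study give the same figure in nanomolar, so the dose is uncertain. Nothing in the labels tells separate cultures from repeat preparations of 1 culture, and the p-values measure only how far these libraries spread, which may be technical.

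Glycolysis turns 1 glucose into 2 pyruvate in a fixed order of steps. Glucose enters through facilitative transporters, is trapped by hexokinase as glucose 6-phosphate, and is committed to breakdown by phosphofructokinase 1, which is switched on by fructose 2,6-bisphosphate, the product of the PFKFB enzymes. The payoff phase from GAPDH to pyruvate kinase yields ATP and NADH, and lactate dehydrogenase regenerates the NAD+ that GAPDH needs. Pyruvate is otherwise oxidised by pyruvate dehydrogenase, which the PDK kinases inhibit. Many cancers, thyroid cancers among them, take up glucose and release lactate even with oxygen present.

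Depth was 24695040 to 27457040 counts per library, enough to test 12794 genes with edgeR's quasi-likelihood test. PAX8, a transcription factor of thyroid follicular cells, was at 18290.3 to 20770.8 normalised counts, FOXE1 at 365.4 to 533.2 and TG, the thyroglobulin gene, at 96.1 to 157.8. TSHR, SLC5A5 and NKX2-1, which also mark the thyroid follicular cell, were at 0 to 5.03, and the epithelial genes EPCAM and CDH1 at 0 to 2.88. Of the 4 tested epithelial markers KRT18 (log2 fold change -0.72), KRT7 (-0.68) and KRT8 (-0.28) were lower after RETi + FGFRi and KRT19, at 36.3 to 45.3 normalised counts, did not pass. The part of these keratin changes in the results below was not tested. The leukocyte, endothelial, blood and liver markers PTPRC, CD3E, VWF, HBB and ALB were at 0 to 6.35 normalised counts, and CD68 (2292.3 to 2616.0) and SYP (16.1 to 34.3) overlapped between the groups. Levels are given as the deposited normalised counts, which are reads divided by 1 factor per library, and comparisons between genes as reads per kilobase of transcript, scaled to library depth (RPKM).

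After RETi + FGFRi 13 of the 35 transcripts were lower (adjusted p under 0.05), 0 were higher and 22 did not pass. Over all tested genes 11.3% were lower and 12.8% higher, against 37.1% lower among the 35. Because the 35 were chosen with earlier results of these data known, the shares in this paragraph are descriptions and not a test of the pathway. The genes that fell were the glucose transporter SLC2A1, HK1, GPI, PFKP, PFKFB3, PFKFB4, ALDOA, TPI1, PGK1, ENO1, the lactate carriers SLC16A1 and SLC16A3, and PDHA1 of pyruvate dehydrogenase. No gene passed at the GAPDH, phosphoglycerate mutase, pyruvate kinase and lactate dehydrogenase steps. The falls were modest: PDHA1 fell by 18.9% and PFKFB4, at the other end, fell by 33.9%. The median log2 fold change was -0.17 over the 35 genes, from -0.60 to 0.46, with 27 negative and 8 positive. Over all tested genes it was 0.0004, with 49.9% negative. In bulk RNA, fewer cells that express a gene and less RNA per cell cannot be told apart. In 19 of the 35 (54.3%) both RETi + FGFRi libraries lay below both RETi libraries, as in 33.0% of all tested genes. In 2, PGAM1 and ENO3, both lay above, as in 32.1% of all tested genes. For ENO3 the nearest libraries were at 85.6 and 84.4 normalised counts, and its groups overlapped in RPKM (1.95 and 2.21, then 2.84 and 2.15). At the thresholds of the study's methods (log2 fold change under -0.5 and p under 0.01), PFKFB4, SLC2A1, GPI and SLC16A3 were lower, 11.4% of the 35 against 3.03% of all tested genes, and 0 of the 35 were higher against 4.96%. Among the genes with a positive fold change 1, PGAM1, had an unadjusted p under 0.05 in edgeR, and DESeq2 called 0 higher and 15 lower. With RETi replicate 1 left out the count was 9 and with RETi replicate 2 left out it was 6, where 653 and 553 genes in all were lower in place of 1446. The median log2 fold change of the 35 was then -0.16 and -0.18. Without RETi + FGFRi replicate 1 or replicate 2 it was 16 lower and 1 higher. In each such fit the group with 1 library left has no spread of its own and is assumed to vary like the other pair, which alone sets the error. The RETi pair differed less (chi-square per degree of freedom 7.91) than the RETi + FGFRi pair (14.0), so calls lost or gained in these fits, here and for the single genes that follow, say little about how large a change is.

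**Figure D1:**
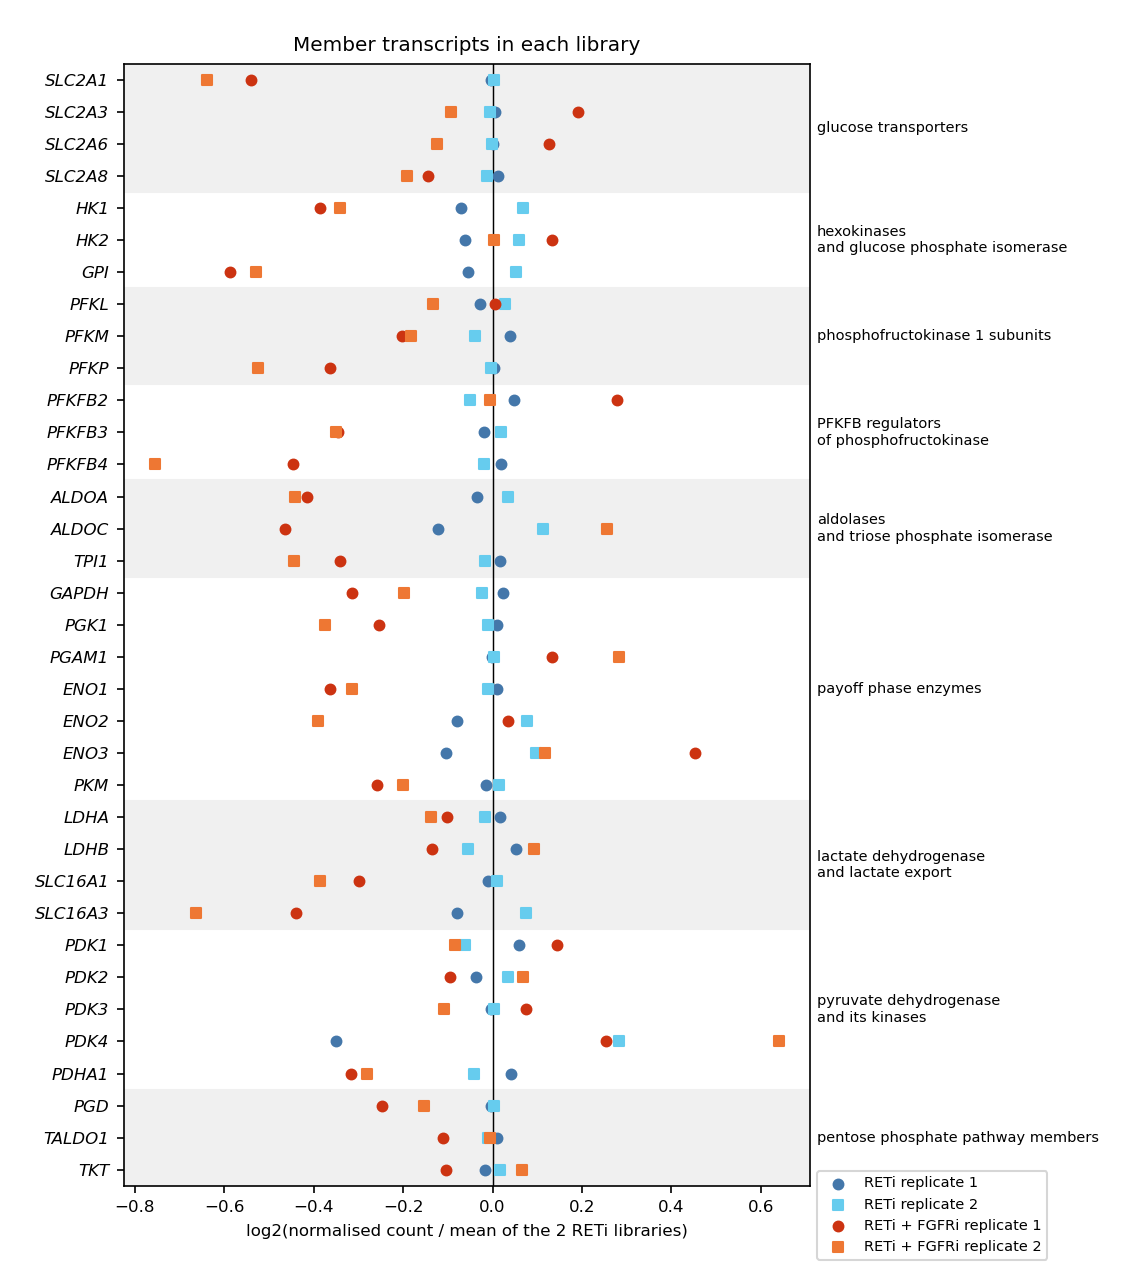
Each row is 1 of the 35 genes, grouped by step, and each point 1 library, plotted as the log2 of its normalised count over the mean of the 2 RETi libraries (circles, replicate 1; squares, replicate 2; blue, RETi; red and orange, RETi + FGFRi). In 19 rows both RETi + FGFRi points lie to the left of both RETi points, as in 33.0% of all tested genes. In 2 rows, PGAM1 and ENO3, they lie to the right, as in 32.1% of all tested genes. For ENO3 the margin is narrow (85.6 against 84.4 normalised counts) and is absent in RPKM.

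Counted as a share of the library, reads of the 35 genes made up 2.28% and 2.24% of all counts in the RETi libraries and 1.89% and 1.87% after RETi + FGFRi. Both RETi + FGFRi shares were lower, and most of each share came from a few transcripts: PKM, ENO1, GAPDH and LDHA together held 73.9% to 74.9% of these reads in every library. Per kilobase, GAPDH was the most abundant of the 35 after RETi (3153.4 and 3014.6 RPKM), followed by ENO1 (2840.4 and 2759.6), PKM (2343.3 and 2358.9) and LDHA (1154.6 and 1112.3). These 4 did not overlap with one another in the RETi libraries. ALDOA (505.8 and 523.5) and LDHB (523.5 and 478.9) came next and overlapped. TKT and TPI1 followed at means of 301.0 and 299.3 RPKM. The regulatory genes were far below the enzymes of the lower pathway, PFKFB3 at a mean of 15.3, PFKFB4 at 6.7 and PFKFB2 at 3.51 RPKM, and ALDOC and PDK4 were the lowest at 0.38 and 0.226. Summed over the 7 payoff phase genes, the level was 8628.9 and 8421.8 RPKM after RETi and 6900.8 and 6952.0 after RETi + FGFRi. For the aldolases with TPI1 it was 811.1 and 817.5 against 622.3 and 573.1. For HK1, HK2 and GPI it was 93.6 and 100.4 against 72.1 and 70.3. All 9 steps had lower sums in both RETi + FGFRi libraries than in both RETi libraries on this scale, which corrects for library totals alone. With the deposited normalised counts per kilobase, a comparison added after the values were seen, 8 of the 9 did, and the pentose phosphate genes overlapped (15574.8 and 15691.4 after RETi, then 14312.5 and 15748.3). These sums cover only the 35 genes, have no test and follow their most abundant member. The hexokinase gene HKDC1 is outside the 35 and was higher in both RETi + FGFRi libraries. It was at 118.0 and 116.0 RPKM after RETi and at 162.5 and 129.7 after RETi + FGFRi, above the sum of HK1, HK2 and GPI. The lower sum at that step therefore holds for the listed genes only. Taken singly, 33.0% of all tested genes were lower in both RETi + FGFRi libraries. For the glucose transporters the margin was small (67.2 and 66.2 RPKM after RETi, then 65.0 and 53.9), and 1 of those 4 genes was called. That sum leaves out other SLC2A genes, of which SLC2A11, SLC2A12 and SLC2A13 were called higher and SLC2A9 lower. SLC2A11, the most abundant of these, was at 13.7 and 15.3 RPKM after RETi, then at 18.7 and 16.0.

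Among the glucose transporters, SLC2A1 fell and the other 3 did not pass. SLC2A1 (ENSG00000117394, chromosome 1, 43391052 to 43424530, hg19) encodes GLUT1, the transporter of basal glucose uptake in most cells. It was at 1495.5 and 1503.6 normalised counts in the RETi libraries and at 1031.5 and 962.4 after RETi + FGFRi. The RETi libraries were nearly alike and both RETi + FGFRi libraries were far below them (1499.6 ± 5.75 against 997.0 ± 48.8, SD, n = 2 each). SLC2A1 fell by 33.7% (log2 fold change -0.59, SE 0.08, adjusted p = 0.00093, edgeR), and was called under each of the 11 alternative settings (highest adjusted p 0.0086). SLC2A3, which encodes the high-affinity transporter GLUT3, was at 259.9 and 258.0 after RETi and at 295.5 and 242.6 after RETi + FGFRi, where the groups overlapped. Per length SLC2A6 had the highest level of the 4 (41.1 RPKM after RETi). It was at 2678.2 and 2675.5 normalised counts and then at 2923.9 and 2456.4, with 1 RETi + FGFRi library above and 1 below the RETi pair. It encodes GLUT6, a transporter of intracellular membranes, and its log2 fold change was 0.00 (SE 0.091). SLC2A8, which encodes the intracellular transporter GLUT8, was lower in both RETi + FGFRi libraries (log2 fold change -0.17, adjusted p = 0.27). SLC2A3 shares much of its sequence with SLC2A14, which was at 0 in all 4 libraries.

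At the entry of the pathway HK1 and GPI fell and HK2 did not pass. HK1 (ENSG00000156515, chromosome 10, 71029740 to 71161638), the mitochondria-bound hexokinase of most tissues, was at 3067.5 and 3373.6 normalised counts after RETi and at 2464.3 and 2544.0 after RETi + FGFRi. Both RETi + FGFRi libraries were below both RETi libraries, and HK1 fell by 22.4% (log2 fold change -0.37, SE 0.078, adjusted p = 0.0077). The HK1 call was lost without RETi replicate 2 (0.094). HK2, the inducible hexokinase that is high in many tumors, was at 1348.4 and 1466.2 and then at 1543.0 and 1409.4. The groups overlapped, and the log2 fold change was 0.07 (SE 0.085). GPI (ENSG00000105220, chromosome 19, 34850385 to 34893061), the isomerase that turns glucose 6-phosphate into fructose 6-phosphate, was at 5531.9 and 5962.7 and then at 3824.1 and 3979.6 normalised counts. It fell by 32.3% (log2 fold change -0.56, SE 0.077, adjusted p = 0.00098), and was called under all 11 alternatives (highest adjusted p 0.013).

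Ratios of isoforms were compared within each library. The log2 ratio of HK2 to HK1 reads was -1.19 and -1.20 in the RETi libraries and -0.68 and -0.85 after RETi + FGFRi. Both later ratios were higher, by 0.43 on average. A ratio within a library does not depend on its depth, but with 2 libraries against 2 an exact two-sided permutation test cannot give a p below 0.333, or 0.666 after adjustment over the 12 isoform pairs compared. Of those 12 pairs 6 did not overlap between the groups, while 65.1% of all tested genes, taken singly, did not overlap, so the count of pairs is not a result in itself. The SLC2A3 to SLC2A1 ratio went from -2.52 and -2.54 to -1.80 and -1.99.

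**Figure D2:**
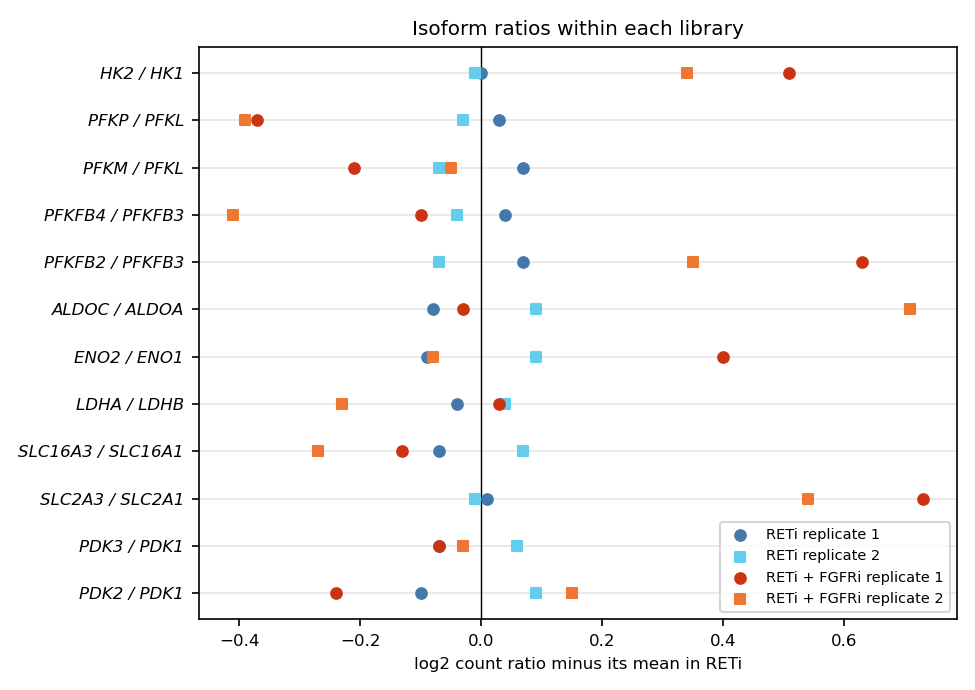
Each row is 1 of the 12 isoform pairs and each point 1 library, plotted as the log2 ratio of the reads of both genes minus its mean in the 2 RETi libraries (circles, replicate 1; squares, replicate 2). In 6 pairs the RETi + FGFRi points do not overlap with the RETi points, as is the case for 65.1% of all tested genes taken singly: HK2 to HK1, PFKFB2 to PFKFB3 and SLC2A3 to SLC2A1 lie higher, PFKP to PFKL, PFKFB4 to PFKFB3 and SLC16A3 to SLC16A1 lower.

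Phosphofructokinase 1 is a tetramer of liver (PFKL), muscle (PFKM) and platelet (PFKP) type subunits, and of these only PFKP passed the test. PFKP (ENSG00000067057, chromosome 10, 3108525 to 3179904) was at 2868.4 and 2852.9 normalised counts after RETi and at 2221.8 and 1988.3 after RETi + FGFRi. Both RETi + FGFRi libraries were lower. PFKP fell by 26.6% (log2 fold change -0.45, SE 0.08, adjusted p = 0.0036), and was called under all 11 alternatives (highest adjusted p 0.027). PFKL was the most abundant subunit (4339.4 and 4512.8, then 4441.5 and 4036.0 normalised counts). Its groups overlapped and its log2 fold change was -0.07 (SE 0.08). PFKM was lower in both RETi + FGFRi libraries (log2 fold change -0.20, adjusted p = 0.073), and passed when libraries were scaled by their totals alone (0.049). The log2 ratio of PFKP to PFKL reads was -0.60 and -0.66 after RETi and -1.0 and -1.02 after RETi + FGFRi, both lower.

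The PFKFB enzymes make and break fructose 2,6-bisphosphate, the activator of phosphofructokinase 1, and 2 of the 3 tested fell. PFKFB4 had the largest fall of the 35 genes and PFKFB3, the isoform with the highest ratio of kinase to phosphatase activity, fell less, so their promoters are shown with that of SLC2A1, which was added after its values were seen. Each window runs from 250 bases before to 50 after the transcription start in the RefSeq table (GRCh38.p14) and is printed 5′ to 3′ on the strand of the gene, with matches to the hypoxia response core ACGTG or GCGTG and to the E-box CACGTG in capitals, both strands searched.
PFKFB4 promoter (chr3:48556754-48557053, minus strand): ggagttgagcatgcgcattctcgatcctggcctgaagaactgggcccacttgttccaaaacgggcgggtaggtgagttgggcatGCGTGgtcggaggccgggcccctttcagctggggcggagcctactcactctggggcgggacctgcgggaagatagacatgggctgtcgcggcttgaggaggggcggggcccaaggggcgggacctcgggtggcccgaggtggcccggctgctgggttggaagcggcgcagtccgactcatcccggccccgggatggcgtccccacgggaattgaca
PFKFB3 promoter (chr10:6202682-6202981, plus strand): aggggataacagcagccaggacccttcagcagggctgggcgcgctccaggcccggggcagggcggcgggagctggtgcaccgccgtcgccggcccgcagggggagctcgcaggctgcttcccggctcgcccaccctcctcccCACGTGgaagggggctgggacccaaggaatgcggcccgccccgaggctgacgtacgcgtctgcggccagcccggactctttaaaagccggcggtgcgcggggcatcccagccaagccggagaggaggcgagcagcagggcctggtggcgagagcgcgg
SLC2A1 promoter (chr1:42958819-42959118, minus strand): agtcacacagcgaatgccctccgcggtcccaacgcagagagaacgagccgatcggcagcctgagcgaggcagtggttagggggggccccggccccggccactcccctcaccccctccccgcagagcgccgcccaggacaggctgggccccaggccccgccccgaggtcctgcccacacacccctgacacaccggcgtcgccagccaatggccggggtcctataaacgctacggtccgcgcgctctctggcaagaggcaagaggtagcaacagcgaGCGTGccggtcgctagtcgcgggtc
The PFKFB4 window held 1 GCGTG, the PFKFB3 window 1 CACGTG, which is a palindrome that contains ACGTG on each strand, and the SLC2A1 window 1 GCGTG just after the start. Promoter windows were found for 32 of the 35 genes, 12 of them lower and 20 not passed. ACGTG was in 5 of the 12 and 9 of the 20, against 21.4% of all 35116 windows. GCGTG was in 6 of the 12 and 10 of the 20, against 36.5%, and CACGTG in 1 of the 12 and 4 of the 20, against 7.26%. The AP-1 motif TGAGTCA was in 0 of the 12 and 1 of the 20 (4.95% of all windows) and the ETS motif CCGGAAGT in 1 of the 12, the GPI window, and 0 of the 20 (4.14%). The motifs were picked after the values were seen, and a match only describes the letters of the window.

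PFKFB4 (ENSG00000114268, chromosome 3, 48555117 to 48599448, hg19), the isoform first described in testis and induced in many tumors, was at 621.7 and 605.1 normalised counts in the RETi libraries. After RETi + FGFRi it was at 450.1 and 363.4, both far below. The mean went from 613.4 ± 11.8 to 406.8 ± 61.3 (SD, n = 2 each), and it fell by 33.9% (log2 fold change -0.60, SE 0.11, adjusted p = 0.0045). The call held under all 11 alternatives (highest adjusted p 0.025). PFKFB3 (ENSG00000170525, chromosome 10, 6186881 to 6277495) was at 1773.0 and 1818.2 and then at 1412.7 and 1409.4. The RETi + FGFRi libraries were nearly equal and both lower, and PFKFB3 fell by 21.6% (log2 fold change -0.35, SE 0.074, adjusted p = 0.0074). Without RETi replicate 2 the PFKFB3 call was lost (0.069). PFKFB2, the heart type isoform, was at 671.7 and 627.2 and then at 787.9 and 647.3, overlapping between groups (log2 fold change 0.14, adjusted p = 0.36). Without RETi + FGFRi replicate 2 it passed as higher (0.28, adjusted p = 0.049), and without RETi + FGFRi replicate 1 it was at -0.003. The log2 ratio of PFKFB4 to PFKFB3 reads went from -1.51 and -1.59 to -1.65 and -1.96, both lower. That of PFKFB2 to PFKFB3 went from -1.40 and -1.54 to -0.84 and -1.12, both higher.

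**Figure D3:**
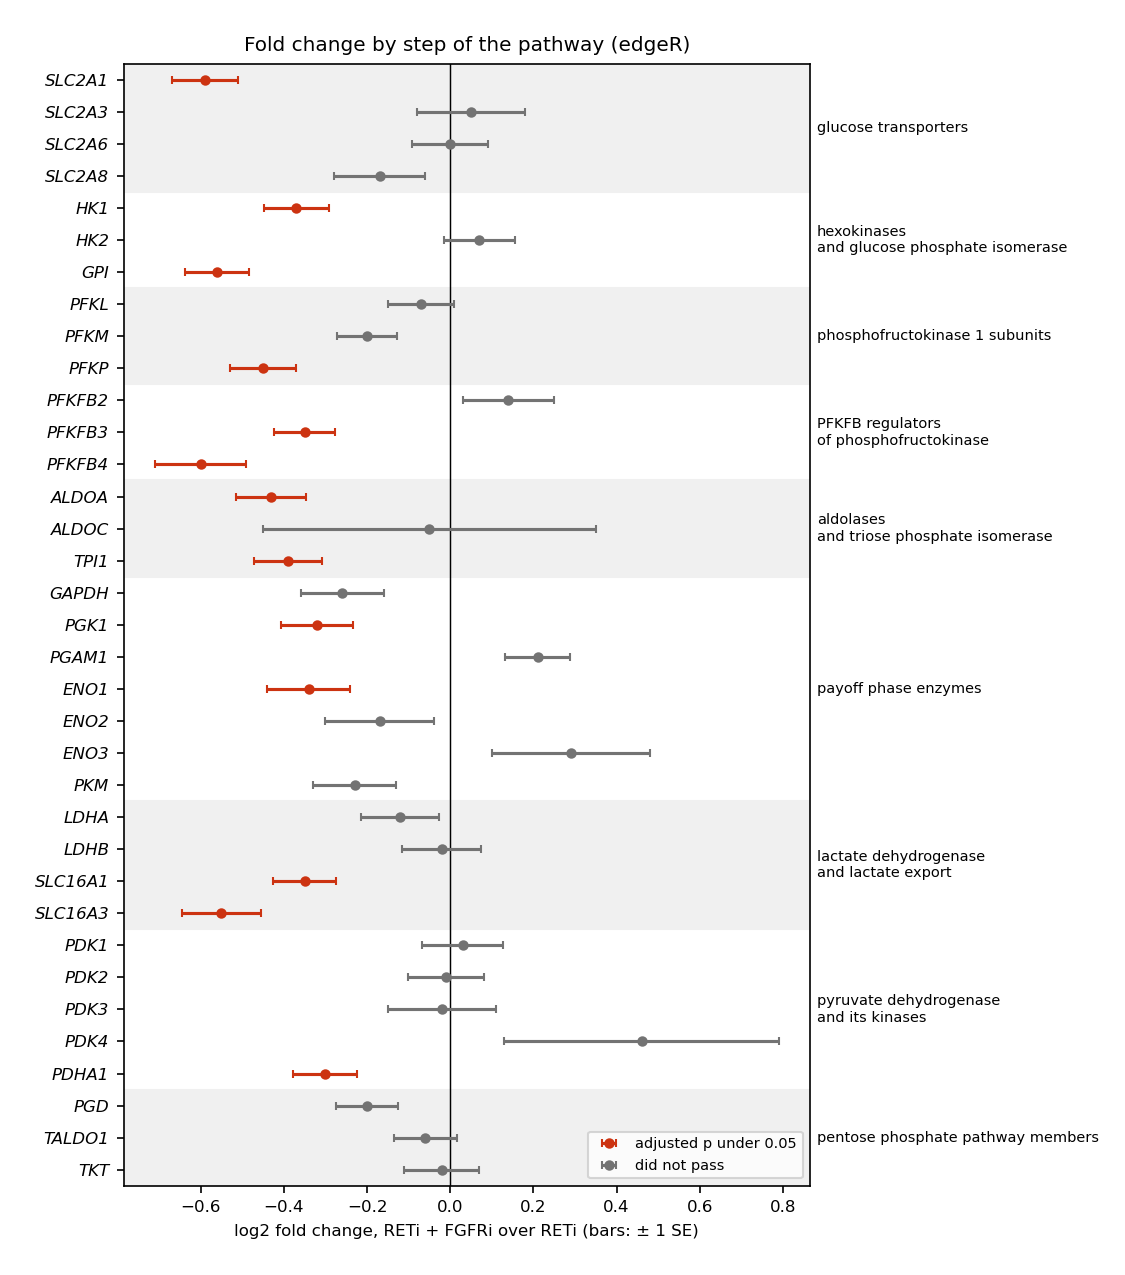
Log2 fold change of RETi + FGFRi over RETi for each of the 35 genes by step, with bars of ± 1 SE from the edgeR fit (red, adjusted p under 0.05; grey, did not pass). All 13 red points lie between -0.60 (PFKFB4) and -0.30 (PDHA1), and the grey points reach from -0.26 (GAPDH) to 0.46 (PDK4).

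The enzymes that split the sugar and balance the triose phosphates fell together, apart from the rare ALDOC. ALDOA (ENSG00000149925, chromosome 16, 30064411 to 30081778), the main aldolase outside the liver and brain, was at 21544.9 and 22603.4 normalised counts after RETi and at 16553.3 and 16237.6 after RETi + FGFRi. Both RETi + FGFRi libraries were lower, and ALDOA fell by 25.9% (log2 fold change -0.43, SE 0.084, adjusted p = 0.0053). TPI1 (ENSG00000111669, chromosome 12, 6976283 to 6980112), triose phosphate isomerase, was at 10699.9 and 10446.8 and then at 8341.8 and 7773.0, also lower in both, and fell by 23.9% (log2 fold change -0.39, SE 0.081, adjusted p = 0.0066). Leaving out RETi replicate 2 ended the call of ALDOA (0.072), and leaving out RETi replicate 1 that of TPI1 (0.055). ALDOC, the brain type aldolase, was at 11.6 to 19.1 normalised counts in the 4 libraries with overlapping groups (log2 fold change -0.05, SE 0.4), too few reads to show a change of the size seen for ALDOA.

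In the payoff phase PGK1 and ENO1 fell, GAPDH and PKM were lower in both RETi + FGFRi libraries without passing, and PGAM1 was higher in both without passing. PGK1 (ENSG00000102144, chromosome X, 77320685 to 77384793), phosphoglycerate kinase, was at 18089.1 and 17823.0 normalised counts after RETi and at 15054.8 and 13844.6 after RETi + FGFRi, and fell by 19.7% (log2 fold change -0.32, SE 0.086, adjusted p = 0.023). ENO1 (ENSG00000074800, chromosome 1, 8921061 to 8939308), the common enolase, was at 131395.7 and 129406.3 and then at 101353.2 and 104870.4, and fell by 21.1% (log2 fold change -0.34, SE 0.1, adjusted p = 0.03). For both genes the RETi libraries lay close together and well above the RETi + FGFRi libraries. With RETi replicate 1 left out, so that the RETi + FGFRi pair alone set the error, the log2 fold changes were -0.30 for PGK1 and -0.33 for ENO1 and neither was called (0.16 and 0.23). With RETi replicate 2 left out they were -0.33 and -0.35, again without a call (0.14 and 0.19). GAPDH, which makes the NADH of glycolysis, was at 105250.5 and 101996.7 and then at 83356.4 and 90339.2, and PKM, the pyruvate kinase of tumors and muscle, at 140296.1 and 143161.5 and then at 118386.2 and 123382.2. Neither gene's groups overlapped. The log2 fold change was -0.26 for GAPDH (SE 0.1, adjusted p = 0.083) and -0.23 for PKM (SE 0.1, adjusted p = 0.12). Both passed with library totals (0.028 and 0.042) and with DESeq2 (0.022 and 0.033). They also passed where the RETi pair alone set the error, with log2 fold changes of -0.20 each without RETi + FGFRi replicate 1 (0.033 and 0.027) and of -0.31 and -0.26 without RETi + FGFRi replicate 2 (0.0027 and 0.009).

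PGAM1, phosphoglycerate mutase, acts between PGK1 and ENO1 and had a fold change of the opposite sign. It was at 5846.7 and 5865.9 normalised counts after RETi and at 6421.8 and 7119.6 after RETi + FGFRi, both higher. Its log2 fold change was 0.21 (SE 0.079, adjusted p = 0.08), and without RETi + FGFRi replicate 1 it passed as higher (0.28, adjusted p = 0.0084). PGAM4, a near-identical copy of PGAM1 without introns, was listed at 435.3 to 495.3 normalised counts with a log2 fold change of 0.00, and reads of the pair may have been split between them. ENO2, the neuronal enolase, was at 1203.3 and 1341.6 and then at 1302.6 and 970.5. Its groups overlapped through RETi + FGFRi replicate 1, and without that library it passed as lower (-0.39, adjusted p = 0.004, against -0.17 with all libraries). ENO3, the muscle enolase, was at 73.5 and 84.4 and then at 108.0 and 85.6 (log2 fold change 0.29, SE 0.19), and the abundant gene PFN1 overlaps it in the deposited coordinates.

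**Figure D4:**
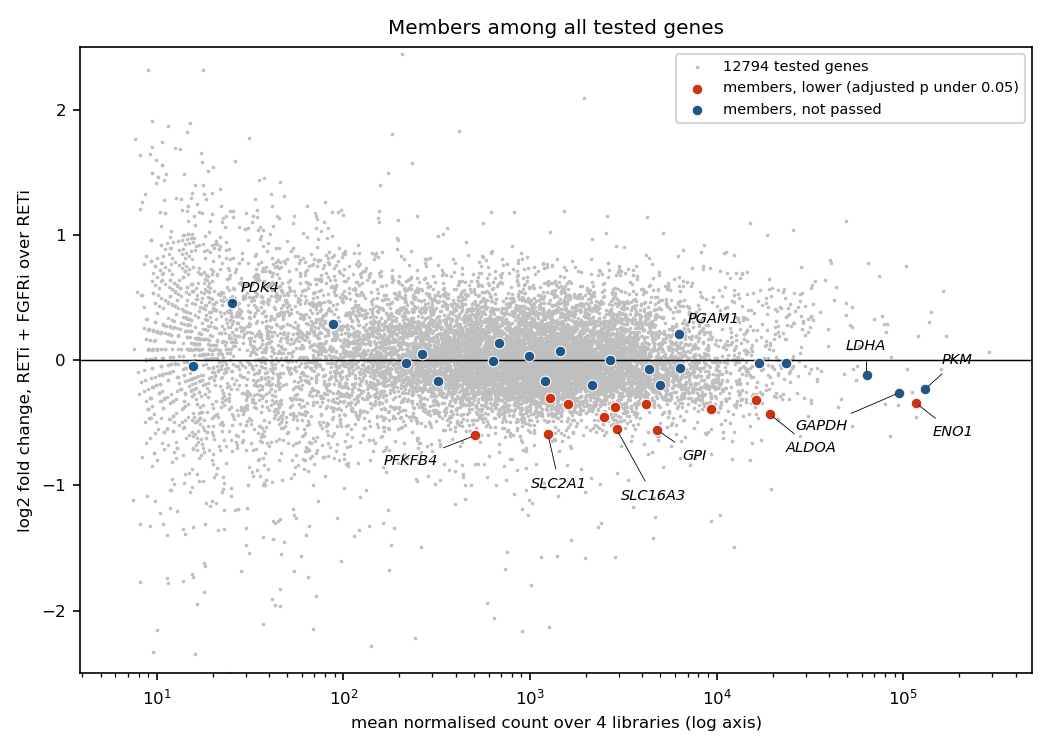
Log2 fold change of RETi + FGFRi over RETi against the mean normalised count over the 4 libraries (log axis) for 12794 tested genes (grey), with the 35 genes of the pathway in red (lower at adjusted p under 0.05) and blue (not passed); 7 genes beyond ± 2.5 are not shown. The red points lie between -0.60 and -0.30, and the most abundant members GAPDH, ENO1, PKM and LDHA are at -0.26, -0.34, -0.23 and -0.12.

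At the end of the pathway both lactate carriers fell, while neither lactate dehydrogenase gene passed. SLC16A3 (ENSG00000141526, chromosome 17, 80186273 to 80219005) encodes MCT4, the low-affinity carrier of lactate export from glycolytic cells, and was at 3269.5 and 3642.1 normalised counts after RETi and at 2548.0 and 2180.6 after RETi + FGFRi. Both RETi + FGFRi libraries were lower. SLC16A3 fell by 31.7% (log2 fold change -0.55, SE 0.094, adjusted p = 0.0028), and the call held under all 11 alternatives (highest adjusted p 0.028). SLC16A1 (ENSG00000155380, chromosome 1, 113454469 to 113499635) encodes MCT1, which carries lactate in both directions. It was at 4672.8 and 4735.3 and then at 3822.0 and 3598.1, lower in both, and fell by 21.3% (log2 fold change -0.35, SE 0.075, adjusted p = 0.0089). The SLC16A1 call was lost without RETi replicate 2 (0.072). The log2 ratio of SLC16A3 to SLC16A1 reads was -0.52 and -0.38 and then -0.58 and -0.72, lower in both. The abundant gene CSNK1D overlaps SLC16A3 in the deposited coordinates. LDHA, the dehydrogenase subunit that favours lactate formation, was at 67207.1 and 65632.4 and then at 61933.8 and 60344.6. Its groups did not overlap, but its log2 fold change was -0.12 (SE 0.094, adjusted p = 0.37). LDHB, the subunit of oxidative tissues, was at 17716.5 and 16430.6 and then at 15554.7 and 18199.7. The groups overlapped, and the log2 fold change was -0.02 (SE 0.095).

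Of the pyruvate dehydrogenase genes only PDHA1 (ENSG00000131828, chromosome X, 19362011 to 19379823), which encodes the catalytic subunit that the PDK kinases phosphorylate, passed the test. It was at 1459.2 and 1378.0 normalised counts after RETi and at 1138.4 and 1166.8 after RETi + FGFRi, lower in both, and fell by 18.9% (log2 fold change -0.30, SE 0.077, adjusted p = 0.018). The PDHA1 call was lost without RETi replicate 1 (0.15) and RETi replicate 2 (0.065). PDK1, the kinase induced by hypoxia, was at 924.2 to 1083.4 normalised counts with overlapping groups. The log2 fold changes of PDK1, PDK2 and PDK3 were 0.03 (SE 0.097), -0.01 (SE 0.091) and -0.02 (SE 0.13). PDK4, the kinase of the fasted state, was at 16.7 and 25.9 and then at 25.4 and 33.2. Its groups overlapped, and its log2 fold change was 0.46 (SE 0.33). The PDK4 estimate was larger than its SE and still did not pass (adjusted p = 0.34, edgeR). With so few reads a change of that size could not be told from 0.

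None of the 3 pentose phosphate enzymes passed. PGD, which makes NADPH in the oxidative branch, was at 5317.1 and 5349.0 and then at 4492.3 and 4798.1, lower in both. Its log2 fold change was -0.20 (SE 0.074, adjusted p = 0.071), and it passed with library totals (0.036) and without RETi + FGFRi replicate 2 (0.033). TKT and TALDO1, the transketolase and transaldolase of the reversible branch, had log2 fold changes of -0.02 (SE 0.09) and -0.06 (SE 0.076) with overlapping groups. TKT was the most abundant of the 3, at 21950.0 to 24696.2 normalised counts.

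Genes around the pathway were counted from lists written by function, and their counts stand beside 11.3% lower and 12.8% higher over all tested genes. Of 28 further isoforms and carriers 16 had enough reads to be tested, of which 1 fell, 5 rose and 10 did not pass (median log2 fold change 0.19). SLC2A12, which encodes GLUT12, was at 282.4 and 284.8 normalised counts and then at 410.9 and 419.8, higher in both (log2 fold change 0.55, SE 0.1, adjusted p = 0.0047). SLC2A9, which encodes a urate transporter, was low, at 46.1 and 43.2 and then at 12.7 and 19.1 (-1.48, SE 0.31, adjusted p = 0.007). EMB, a chaperone of monocarboxylate carriers, and SLC2A13, a myo-inositol carrier, rose (0.38 and 0.36, adjusted p = 0.0092 and 0.015), but EMB did not pass without RETi replicate 2 (0.096), nor SLC2A13 without RETi replicate 1 (0.13). The other chaperone of the lactate carriers, BSG, had a log2 fold change of -0.07 (adjusted p = 0.6). HKDC1, a hexokinase with low glucose phosphorylating activity, was by level per length the most abundant hexokinase gene, at 118.0 and 116.0 RPKM after RETi and at 162.5 and 129.7 after RETi + FGFRi, against 32.8 and 35.6, then 26.2 and 25.8 RPKM for HK1 and 9.23 and 9.9, then 10.5 and 9.17 RPKM for HK2. Its log2 fold change was 0.35 (SE 0.099, adjusted p = 0.027), lost without RETi replicate 1 (0.11) and RETi replicate 2 (0.15). HKDC1 and BSG were named after their values were seen.

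Routes that pyruvate and NADH take into the mitochondrion were mixed. Of 10 genes of pyruvate entry and pyruvate dehydrogenase 1 fell and 2 rose (median 0.03). PC, pyruvate carboxylase, fell (-0.38, adjusted p = 0.017), MPC2, a subunit of the mitochondrial pyruvate carrier, rose (0.35, adjusted p = 0.028) and PDP1, a phosphatase that activates pyruvate dehydrogenase, rose (0.25, adjusted p = 0.033), while MPC1 was at 0.28 (adjusted p = 0.057). Without RETi + FGFRi replicate 2 none of these 3 calls was kept (0.053 for PC, 0.094 for MPC2 and 0.078 for PDP1). PC was lost also without RETi replicate 2 (0.12), MPC2 without RETi replicate 1 (0.19) and PDP1 without either RETi library (0.17 each). Of 9 tested genes of the malate-aspartate and glycerol phosphate shuttles, which pass glycolytic NADH to the respiratory chain, 5 fell and 2 rose (median -0.28). GOT1, the cytosolic aspartate aminotransferase, fell from 1562.2 and 1556.4 to 1124.7 and 1101.4 normalised counts (-0.49, SE 0.076, adjusted p = 0.0017) and was called under all 11 alternatives. SLC25A13, the aspartate-glutamate carrier (-0.39, adjusted p = 0.0087), and MDH2, the mitochondrial malate dehydrogenase (-0.29, adjusted p = 0.022), fell, and MDH1, its cytosolic counterpart, rose (0.43, adjusted p = 0.0076). MDH1 and SLC25A13 lost their calls with RETi replicate 1 left out (0.055 and 0.065), and MDH2 was lost when RETi replicate 1 (0.12), RETi replicate 2 (0.13) or the first RETi + FGFRi library (0.056) was left out. Without RETi replicates 1 and 2 in turn, 1 and 2 shuttle genes fell. Of 16 genes of the TCA cycle 3 fell (18.8%, near the 11.3% of all tested genes) and 3 rose (median -0.06), led by SUCLG1 (0.53, adjusted p = 0.0034) and OGDH (-0.40, adjusted p = 0.0047), the latter lost without RETi replicate 2 (0.058).

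In the branches off glycolysis, genes of the serine and pentose phosphate routes moved in both directions. PHGDH, which draws 3-phosphoglycerate into serine synthesis, rose from 1116.0 and 1169.0 to 1437.1 and 1574.5 normalised counts (log2 fold change 0.40, adjusted p = 0.0064, called under all 11 alternatives). The next enzyme of that route, PSAT1, fell (-0.30, adjusted p = 0.02), as did RPIA, ribose 5-phosphate isomerase (-0.38, adjusted p = 0.021). Without RETi replicate 1 neither PSAT1 nor RPIA passed (0.11 each), nor did they without RETi replicate 2 (0.15 and 0.1). RPIA was lost also with DESeq2 (0.06) and without RETi + FGFRi replicate 2 (0.053). Of 12 glycogen and hexose genes 0 fell and 1 rose. The gene that rose was GYG1, the primer of glycogen synthesis (0.47, adjusted p = 0.0021, called under all 11 alternatives). Of the gluconeogenesis genes 3 of 7 were tested, G6PC3, SLC37A4 and PCK2, with log2 fold changes of -0.19, -0.09 and -0.04, and none passed.

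Among 19 tested regulators of these genes 3 fell (15.8%, near the 11.3% of all tested genes), 0 rose and 16 did not pass (median 0.01). With RLE scaling, without a filter and with DESeq2, 1 fell. MYC, a transcription factor that activates many glycolytic genes, was at 2552.6 and 2610.3 normalised counts after RETi and at 2064.0 and 2116.2 after RETi + FGFRi, lower in both (log2 fold change -0.31, adjusted p = 0.012). Without RETi replicate 1 (0.06) and RETi replicate 2 (0.098) MYC did not pass. EGLN1, an oxygen sensor that marks HIF proteins for destruction, was at -0.22 (adjusted p = 0.043) and VHL, which recognises that mark, at -0.23 (adjusted p = 0.05 after rounding, under the threshold). Both calls were at the edge of the threshold. EGLN1 was lost with RLE scaling (0.054), without a filter (0.053), with DESeq2 (0.088) and with the first (0.17) or second (0.24) RETi library or the first RETi + FGFRi library (0.084) left out. VHL was called under 3 of the 11 alternatives, with adjusted p from 0.051 to 0.36 under the others. TIGAR, a fructose bisphosphatase that lowers glycolytic flux, did not pass (-0.36, adjusted p = 0.053). HIF1A, which is controlled mainly through the stability of its protein, was at 0.02 (adjusted p = 0.89), and TXNIP, an inhibitor of glucose uptake, at 0.01 (adjusted p = 0.93). These 2 were named after their values were seen.

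In the deposited coordinates 11 of the 35 genes overlap another listed gene, among the called ones GPI, PFKFB4, TPI1, SLC16A3 and PDHA1. The sources used here do not say whether counting used strand, so reads in the shared stretches are uncertain. GAPDH, ENO1, LDHA, PGK1 and others have processed copies elsewhere in the genome, and how reads that fit several places were treated is not given either.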

How the data were processed

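RNA of TPC1 cells after 24 h of RETi or RETi + FGFRi was measured by RNA sequencing (2 libraries per group, grouped by the labels). For each gene and library the authors deposited the raw read count and a normalised signal, which is that count over a single factor of the library. Per the submitters' processing notes the build was hg19 and the tools were STAR 2.3 and DESeq2, whereas the methods of the study give a later STAR release and paired-end reads in place of the single-end reads of the labels. A read counter, its use of strand and its handling of shared reads are not given in the sources used here. Columns of the authors' own comparison (fold change, standard error, statistic and p-values) were not used.

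Counts of 20372 genes, of which 4067 had no read, entered the quasi-likelihood F-test of edgeR 4.0.16 (R 4.3.3, TMM, filterByExpr minimum of 10, no covariates, 2 residual and 8.96 prior degrees of freedom), with Benjamini-Hochberg adjustment over 12794 genes. The SE is the size of the log2 fold change divided by the square root of F. Depth was 26486456 and 27457040 counts for RETi and 24695040 and 27151015 for RETi + FGFRi. Libraries of a group differed by more than sampling noise (chi-square per degree of freedom 7.91 and 14.0, against 42.7 to 62.9 between groups) and were not merged. RPKM used GENCODE 44 canonical transcript lengths. The procedure was tested on simulated data. The 35 genes and the other lists were chosen with earlier results of these data known. Of the 35, values per library are given where a gene was called, had an absolute log2 fold change of at least 0.3 or was the most abundant of its step, and of each other list up to 4 genes with the smallest p were named. Some genes of these lists are not reported here. Alternatives were 3 other scalings, 2 other filters, DESeq2 1.42.0, a replicate block, leaving out each library, and the thresholds of the study.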

Additional observations from a re-analysis of the deposited data

How the results depend on the processing

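The median log2 fold change of the 35 genes stayed between -0.20 and -0.16 under all 11 alternative settings. The number that fell was 13 with edgeR's RLE and upper quartile scaling, without a filter and with a mean filter of 50 reads, 17 with library totals, 15 with DESeq2 and 4 at the thresholds of the study. It ranged from 6 to 16 when 1 library was left out, the number that rose from 0 to 1, and the calls over all genes from 553 to 1503 lower and from 691 to 1942 higher. Over all genes DESeq2 called 1008 lower and 1331 higher, against 1446 and 1643. Library totals gave 1809 lower and 1507 higher. Deviations of same-numbered libraries from their group means had a correlation of 0.025 over all tested genes. A single correlation over all genes cannot exclude a replicate effect in some of them. With the replicate block 13 of the 35 fell, with 1738 lower and 2041 higher over all genes.

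Some genes near 0 changed sign, and the cause was not tested. SLC2A6 was at -0.02 with library totals and at -0.0008 both without a filter and with the replicate block. With 1 library left out, values on the log2 scale ranged across 0 for SLC2A6 (-0.12 to 0.13), SLC2A3 (-0.09 to 0.19), PFKL (-0.13 to 0.01), PFKFB2 (-0.003 to 0.28), ALDOC (-0.45 to 0.26), ENO2 (-0.39 to 0.04), LDHB (-0.13 to 0.09), PDK1 (-0.08 to 0.15), PDK2 (-0.09 to 0.07), PDK3 (-0.11 to 0.08), TKT (-0.10 to 0.07) and PCK2 (up to 0.06). The isoform ratios that did so were ALDOC to ALDOA (-0.04 to 0.71), ENO2 to ENO1 (-0.07 to 0.40), LDHA to LDHB (-0.23 to 0.03), PDK3 to PDK1 (0.02 without RETi replicate 2) and PDK2 to PDK1 (-0.24 to 0.15, and 0.05 without RETi replicate 2). Depth limits ALDOC and PDK4, which had fewer than 50 reads in each library.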

Other observations

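Among 12 genes that are commonly used to scale expression measurements 2 fell and 2 rose (16.7% each way, near the 11.3% and 12.8% of all tested genes), with a median log2 fold change of 0.05. ACTB, the beta-actin gene, was at 100463.9 and 109302.9 normalised counts after RETi and at 79813.0 and 83874.0 after RETi + FGFRi, lower in both (log2 fold change -0.36, adjusted p = 0.026), but was not called without RETi replicate 1 (0.11) or replicate 2 (0.26). TFRC, the transferrin receptor gene, fell (-0.41, adjusted p = 0.0071), and did not pass without RETi replicate 2 (0.061). B2M, which encodes the light chain of MHC class I, was at 75844.6 and 77711.3 and then at 126988.5 and 131479.4, higher in both (0.75, adjusted p = 0.00083, called under all 11 alternatives). The ribosomal protein gene RPL13A rose (0.54, adjusted p = 0.0086), but not without RETi replicate 2 (0.087). GAPDH, itself a member of the pathway, lay between these at -0.26.

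In the TCA cycle list genes of succinate dehydrogenase were called in different directions. SDHC (0.45, adjusted p = 0.0077) and SDHD (0.28, adjusted p = 0.024) rose and SDHA (-0.36, adjusted p = 0.01) fell, while SDHB was at 0.16 (adjusted p = 0.17). SDHC was called under all 11 alternatives, SDHD was lost without RETi replicate 1 (0.19), RETi replicate 2 (0.08) and RETi + FGFRi replicate 2 (0.053), and SDHA without RETi replicate 1 (0.091). SDHA, SDHD and SDHB were named after their values were seen.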
